A study of Mus musculus with 6 samples.

Results

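The genes described are 41 interferon-induced antiviral and GTPase genes of the mouse, the transcripts that cells switch on when interferon reaches them. They were taken from a given list of symbols by the name of the array probe, and an older or newer symbol of the same gene counted as a match. All 41 had a probe, among 19151 named genes on the array. The samples are labelled as satellite cells, the stem cells of skeletal muscle, taken from female mice in proliferation, and the satellite cell marker Pax7 was not well above background on the Magic-F1 arrays. The Magic-F1 group carried Magic-F1, a designed agonist of the receptor MET based on hepatocyte growth factor, in the genotype +/+, and its sample titles carry the word Omo. The control group is described only as control, and MLC3F, a word in its sample titles, is not explained in the labels. Age, the promoter that drives the transgene and the number of animals behind a sample are not given in the sources used here. Each group held 3 samples, called biological triplicates, and 1 single-colour Agilent array was run per sample. No separate animals or cultures are named, so p-values cover only the spread among the 3 samples of a group, and this spread may be technical.

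Interferons are secreted proteins that warn cells of infection. Type I interferons bind the receptor chains IFNAR1 and IFNAR2 and act through the kinases JAK1 and TYK2 on a transcription factor complex that includes STAT2 and IRF9 and binds the interferon-stimulated response element (ISRE). Type II interferon, or interferon gamma, binds IFNGR1 and IFNGR2 and acts through JAK1 and JAK2 on factors that bind the gamma-activated sequence (GAS). The induced genes encode sensors of foreign nucleic acid, transcription factors that prolong the response, enzymes and binding proteins that stop viral RNA, membrane proteins that stop viral entry or release, and GTPases that attack the vacuoles of intracellular pathogens. Many genes answer to both types of interferon. Here 32 members were counted as type I targets and 9 as type II targets, by the type each is best known for.

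Stretches of DNA in front of 7 of these genes are shown because they cover each result of the test in the values that follow: Isg15, Ifit1, Igtp and Tgtp1 fell, Oas3 and Irgm1 rose, and Ifit3 did not pass the test. Each line gives the 160 bases before the gene's start, 5′ to 3′ on the gene's strand, from RefSeq on build GRCm38.p6. Capitals mark matches to the ISRE core (GAAA, any 2 bases, GAAA) or the GAS core TTCNNNGAA on either strand.
Isg15 (chr4:156200819-156200978, minus strand): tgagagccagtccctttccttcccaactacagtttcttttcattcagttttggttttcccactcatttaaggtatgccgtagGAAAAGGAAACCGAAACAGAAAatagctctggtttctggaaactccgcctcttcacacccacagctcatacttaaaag
Ifit1 (chr19:34640729-34640888, plus strand): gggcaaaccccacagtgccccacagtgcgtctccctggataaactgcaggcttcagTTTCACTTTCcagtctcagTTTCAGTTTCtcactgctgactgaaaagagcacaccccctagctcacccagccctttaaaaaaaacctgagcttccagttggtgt
Ifit3 (chr19:34583369-34583528, plus strand): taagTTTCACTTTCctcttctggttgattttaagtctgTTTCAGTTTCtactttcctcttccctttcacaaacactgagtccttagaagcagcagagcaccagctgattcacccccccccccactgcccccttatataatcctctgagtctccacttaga
Oas3 (chr5:120777660-120777819, minus strand): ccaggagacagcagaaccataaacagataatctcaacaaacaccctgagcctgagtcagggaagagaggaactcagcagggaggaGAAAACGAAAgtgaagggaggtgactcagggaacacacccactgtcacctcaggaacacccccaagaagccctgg
Igtp (chr11:58199396-58199555, plus strand): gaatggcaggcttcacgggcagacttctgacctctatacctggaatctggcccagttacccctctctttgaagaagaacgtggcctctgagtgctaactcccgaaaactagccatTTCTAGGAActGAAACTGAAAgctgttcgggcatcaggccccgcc
Irgm1 (chr11:48871421-48871580, minus strand): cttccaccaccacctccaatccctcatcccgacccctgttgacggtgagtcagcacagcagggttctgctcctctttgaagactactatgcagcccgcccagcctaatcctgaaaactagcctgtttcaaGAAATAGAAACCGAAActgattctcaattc
Tgtp1 (chr11:48992247-48992406, minus strand): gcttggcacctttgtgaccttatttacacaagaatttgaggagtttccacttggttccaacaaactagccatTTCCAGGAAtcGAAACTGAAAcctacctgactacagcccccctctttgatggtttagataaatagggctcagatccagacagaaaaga
Matches that overlap or adjoin run together in capitals. Isg15 held 3 overlapping ISRE cores, Ifit1 and Ifit3 held 2 each, and Irgm1 held 2. Igtp and Tgtp1 each held a GAS core followed by an ISRE core.

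The motif count used a window from 250 bases before to 50 bases after the start, and 30 of the 41 members had an entry in the promoter table. An ISRE core lay in 18 of the 30 (60%), and in 3.99% of the 27025 genes of the table. A GAS core lay in 10 of the 30 (33.3%), and in 9.55% of the genes. In 2 member promoters an ISRE core and a GAS core overlapped, so their letters counted for both. The ISRE core was present in 5 of 6 members that rose, in 10 of 19 that fell and in 3 of 5 that did not pass the test. For the GAS core the counts were 2 of 6, 7 of 19 and 1 of 5. By type, the ISRE core was found in 13 of 23 type I targets and 5 of 7 type II targets, and the GAS core in 7 of 23 and 3 of 7. A match is a description of the letters and does not show binding, and the absence of a match covers only this window.

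**Figure D1:**
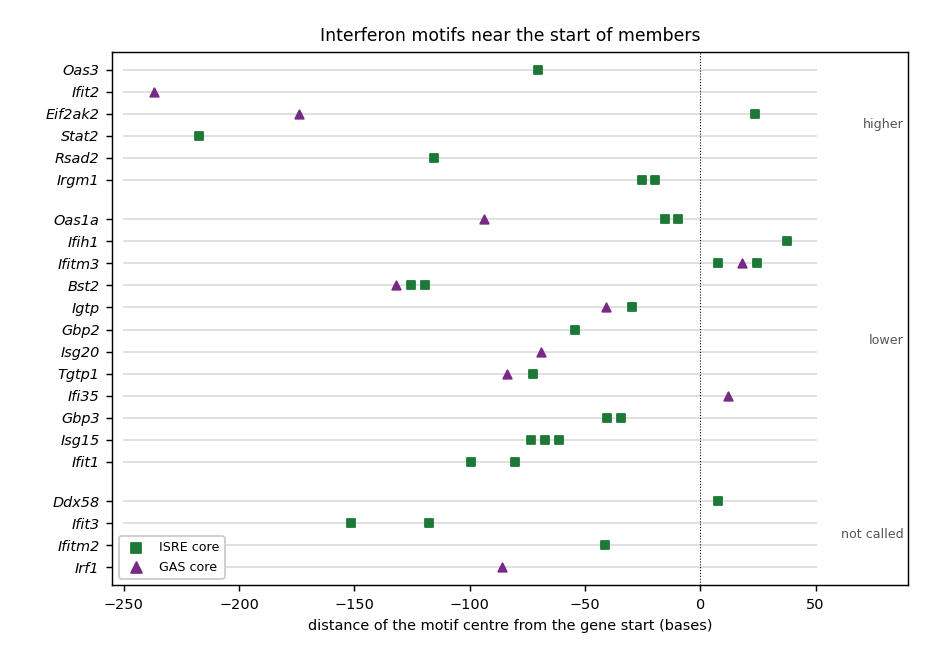
Distance of the centre of each ISRE core (squares) and GAS core (triangles) from the gene start in bases (x axis), for the members whose window of 250 bases before to 50 after the start held a match; rows are genes, grouped by their call in Magic-F1 against control. Matches lie on both sides of the start and in all 3 groups of calls.

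Most of these genes were lower on Magic-F1 arrays, but not all. Of 41 members tested, 25 fell (61.0%), 10 rose (24.4%) and 6 did not pass the test. The falls were led by Ifitm1, Ifit1, Isg15, Iigp1 and Oasl1, each over 10-fold in the main values, and the rises by Oas3, Parp14 and Oas2. The test was limma's on log2 signal after subtraction of the 75th percentile of the array, with Benjamini-Hochberg adjustment at 0.05 over all 21190 tested probes. The groups differed across the whole array: 89.1% of the 13033 tested genes passed, with 40.5% higher and 48.7% lower on Magic-F1. The members' share of falls stood above the 48.7% of all genes and their share of rises below the 40.5%. In the main values falls of at least 2-fold were seen in 17 members (28.9% of all genes) and rises of at least 2-fold in 6 (23.6% of all genes). The values of the 2 groups did not overlap in 36 members, against 90.6% of all genes. The median log2 change was −0.58 over the members and −0.17 over all tested genes. Gbp3 and Gbp6 were tested only because they were well above background in control. With the 8 usable spiked-in transcripts as the scale the median of all genes moved to 0.29, and 17 members rose and 20 fell. Relative to the median of all genes, 25 members lay below and 16 above. RNA of whole samples was measured, so fewer cells of a type and less RNA per cell cannot be told apart.

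**Figure D2:**
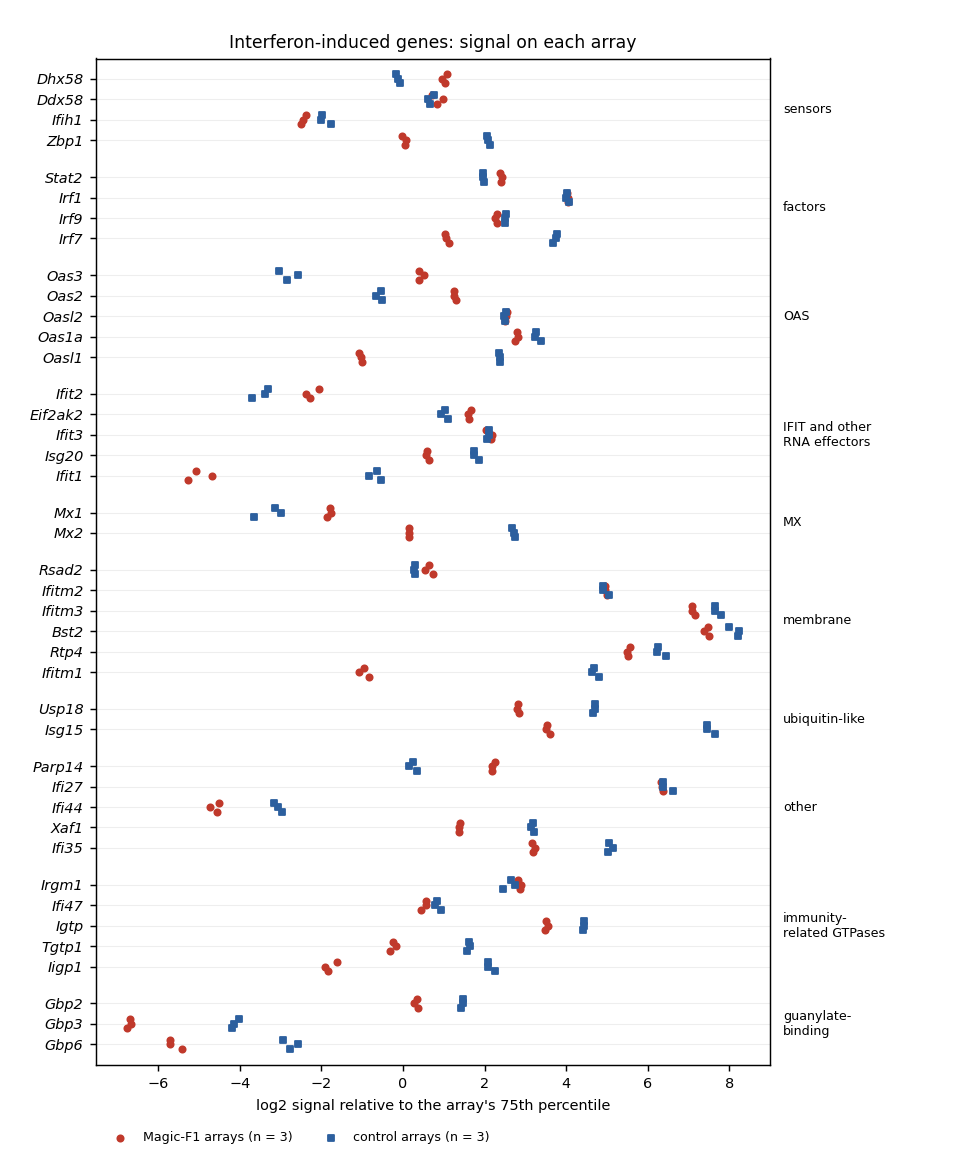
Signal of each member on each array, as log2 relative to the array's 75th percentile (x axis), with circles for the 3 Magic-F1 arrays and squares for the 3 control arrays; rows are genes, ordered by role. In 36 of 41 members the circles and squares do not overlap, against 90.6% of all tested genes, and the arrays of a group lie close together.

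Arrays of the same group were close to each other. The lowest correlation over tested probes was 0.996 within groups, and the highest between them was 0.849. The 75th percentile of spot signal was 341 to 356 on Magic-F1 arrays and 275 to 292 on control arrays, 0 spots were saturated, and 49.2% to 52.0% stood well above background. Precision is limited by the number of arrays. The median SD of a member was 0.05 on Magic-F1 arrays and 0.08 on control arrays, on the log2 scale. The widest spread was that of Ifit1 in Magic-F1 (SD 0.30) and of Mx1 in control (SD 0.35).

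Markers of several cell types moved with the groups, and these values stand beside every result here. The 9 tested satellite cell and myoblast markers of 10 were all lower on Magic-F1, with a summed signal, in multiples of the array's 75th percentile, of 24.9 to 25.8 against 429 to 464 on control arrays. Pax7, which marks satellite cells, was not well above background on the 3 Magic-F1 arrays. Macrophage markers rose in 13 of 14 tested, from a summed 395 to 423 in control to 1789 to 1867, and Lyz2 fell. Neutrophil and granulocyte precursor markers fell in 11 of 12 tested, from a summed 590.2 to 637 in control to 2.22 to 2.30. The 6 neutrophil markers S100a9, Ltf, Camp, Ngp, Ms4a3 and Cxcr2 were not well above background on the 3 Magic-F1 arrays. Endothelial markers fell in 8 of 9 tested, from 9.28 to 9.57 in control to 0.264 to 0.302, and Pecam1, Cdh5, Robo4, Sox18 and Tie1 were not well above background on the 3 Magic-F1 arrays. Adipocyte markers rose in 8 of 8 tested, from 146 to 148 to 753 to 792. Of the T and NK cell markers 2 rose and 4 fell of 7 tested, with sums of 0.749 to 0.777 in Magic-F1 and 2.34 to 2.45 in control. Of the markers of plasmacytoid dendritic cells, known as strong producers of type I interferon, 2 rose and 3 fell of 5 tested, with sums of 37.2 to 39.7 and 35.0 to 40.8 that overlap between the groups. Most of these sums came from Cox6a2 and Tcf4, with log2 means of 4.08 and 4.36 on Magic-F1 arrays and 4.90 and 2.75 on control arrays. Siglech and Klk1 were well above background on no array, and Ccr9 was not tested. The sums therefore do not show whether these cells were present. Fibro-adipogenic progenitor markers rose in 3 and fell in 4 of 8, with sums of 587 to 596 and 588 to 601. A marker not well above background on the arrays of 1 group passed the filter only through the other group, so it had to differ. Besides those named above, these were Nkg7, Spib and Dpp4, dim on Magic-F1 arrays, and Mrc1, Retn, Cd4 and Klrb1c, dim on control arrays. With normexp background correction Cd4 changed by 0.03 on the log2 scale (limma adjusted p 0.518). The part of these cell types in the changes of the interferon-induced genes was not tested.

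The sensors moved apart. Zbp1, a sensor of Z-form nucleic acid, read −0.02, 0.07 and 0.06 on Magic-F1 arrays and 2.05, 2.09 and 2.14 on control arrays. It was 4.16-fold lower (log2 −2.06, SE 0.05, adjusted p 1.96e-07). Dhx58, which encodes the RNA helicase LGP2, went the other way, with 1.07, 0.95 and 1.02 against −0.16, −0.12 and −0.08. Its rise was 2.20-fold (log2 1.14, SE 0.05, adjusted p 2.75e-06). Ifih1, which encodes the long double-stranded RNA sensor MDA5, read −2.37, −2.46 and −2.50 against −2.0, −2.0 and −1.76 and fell 1.44-fold (adjusted p 0.00115), a call lost under the spike-in scale. Ddx58, which encodes the RNA sensor RIG-I, read 0.72, 0.97 and 0.83 against 0.77, 0.62 and 0.65, and the groups overlap. Its change of 0.16 on the log2 scale, with a 95% interval from −0.04 to 0.36, did not pass (adjusted p 0.107). It passed as higher without Magic-F1 replicate 1 (0.22, adjusted p 0.0493), with the spike-in scale (0.62) and with array median scaling (0.29).

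Among the 4 transcription factors of the members the change was largest in Irf7. Irf7, the master factor of the late type I interferon response, read 1.04, 1.06 and 1.12 on Magic-F1 arrays and 3.77, 3.75 and 3.67 on control arrays. It was 6.31-fold lower (log2 −2.66, SE 0.05, adjusted p 8.8e-08). Stat2 and Irf9, whose products bind the ISRE together, changed less than Irf7 and, in the main values, in opposite directions. Stat2 read 2.37, 2.42 and 2.39 against 1.97, 1.97 and 1.99 and rose 1.34-fold (adjusted p 0.000103). Irf9 read 2.29, 2.26 and 2.31 against 2.53, 2.51 and 2.51 and fell 1.17-fold (adjusted p 0.00199). With the spike-in scale Irf9 passed as higher (0.23, adjusted p 0.0092), and with array median scaling its call was lost (−0.10, adjusted p 0.096). A second, dimmer Irf9 probe gave a log2 change of −0.44 in the main values (adjusted p 0.000193). Neither group overlapped the other in these 2 genes. Irf1, an early factor of the interferon gamma response, read 4.02, 4.04 and 4.05 against 4.03, 3.99 and 4.06. The groups overlap, and the change of 0.01 had a 95% interval from −0.09 to 0.12 (adjusted p 0.794). Irf1 passed as higher with the spike-in scale (0.47) and with array median scaling (0.14).

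The 2′,5′-oligoadenylate synthetases make a second messenger of the antiviral response, and their family spanned the range of responses. Oas3 read 0.40, 0.50 and 0.39 on Magic-F1 arrays and −3.03, −2.57 and −2.84 on control arrays. This was the largest rise among the members in the main values, 9.49-fold (log2 3.25, SE 0.12, adjusted p 1.03e-06), and 4.15-fold with normexp background correction. Normexp was run with an offset of 50 added to every signal, which by itself shrinks the folds of dim probes. Oas2 read 1.26, 1.24 and 1.29 against −0.53, −0.66 and −0.52 and rose 3.55-fold (log2 1.83, SE 0.05, adjusted p 4.51e-07). Oas1a, with 2.79, 2.82 and 2.74 against 3.27, 3.24 and 3.39, fell 1.43-fold (adjusted p 0.000214), a call lost under the spike-in scale. It has near-identical relatives such as Oas1g, so its probe may not tell them apart. Oasl1 and Oasl2 encode relatives with a ubiquitin-like tail. Oasl1 read −1.08, −1.03 and −1.0 against 2.34, 2.38 and 2.38 and was 10.6-fold lower (log2 −3.40, SE 0.05, adjusted p 3.32e-08). Oasl2 read 2.56, 2.52 and 2.51 against 2.52, 2.47 and 2.49. These values overlap, and its change of 0.04 had a 95% interval from −0.07 to 0.14 (adjusted p 0.455). Oasl2 passed as higher with the spike-in scale (0.49) and with array median scaling (0.16).

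The IFIT proteins bind foreign RNA that lacks the cap marks of the cell's own messages, and the 3 measured genes gave 3 different results. Ifit1, whose promoter and that of Ifit3 each hold 2 ISRE cores, read −5.07, −4.68 and −5.27 on Magic-F1 arrays and −0.65, −0.84 and −0.55 on control arrays. Its fall was 20.1-fold (log2 −4.33, SE 0.16, adjusted p 1.16e-06), and 4.04-fold with normexp background correction. On 2 of 3 Magic-F1 arrays Ifit1 was well above background, so the size of its fall depends on the background and, with normexp, on the added offset. Ifit2 read −2.06, −2.37 and −2.27 against −3.31, −3.37 and −3.71 and rose 2.35-fold (log2 1.23, SE 0.13, adjusted p 0.000176), or 1.23-fold with normexp. A second Ifit2 probe gave a log2 change of 1.00 and also passed. Ifit3 read 2.04, 2.19 and 2.15 against 2.11, 2.11 and 2.07. The control values lie within the Magic-F1 range, and the change of 0.03 had a 95% interval from −0.10 to 0.17 (adjusted p 0.602). It passed as higher with the spike-in scale (0.49). Ifit3 has a near-identical copy, Ifit3b, that its probe may also detect.

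Other RNA effectors also split. Eif2ak2, which encodes the kinase PKR that halts translation on double-stranded RNA, read 1.67, 1.59 and 1.61 against 1.02, 0.93 and 1.10. It rose 1.52-fold (log2 0.61, SE 0.06, adjusted p 0.000103). Isg20, an exonuclease of single-stranded RNA, read 0.58, 0.57 and 0.64 against 1.75, 1.73 and 1.86. It was 2.27-fold lower (log2 −1.18, SE 0.05, adjusted p 2.6e-06), and a second probe gave −1.24.

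The MX genes encode dynamin-like GTPases that trap viral nucleocapsids, and the pair moved in opposite directions. Mx1 read −1.78, −1.77 and −1.86 on Magic-F1 arrays and −3.13, −2.99 and −3.65 on control arrays. It rose 2.74-fold (log2 1.46, SE 0.17, adjusted p 0.000264), or 1.5-fold with normexp. Mx2 read 0.15, 0.14 and 0.15 against 2.68, 2.72 and 2.74. It was 5.93-fold lower (log2 −2.57, SE 0.04, adjusted p 5.44e-08). The groups did not overlap in either gene.

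Of the membrane-associated proteins, Ifitm1 had the largest change of all members in the main values. The IFITM proteins block fusion of viruses with cell membranes. Ifitm1 read −0.96, −1.07 and −0.82 on Magic-F1 arrays and 4.69, 4.64 and 4.81 on control arrays. It was 50.6-fold lower (log2 −5.66, SE 0.08, adjusted p 3.93e-08), and 36.1-fold with normexp. The changes of its relatives were smaller. Ifitm3 read 7.09, 7.10 and 7.15 against 7.64, 7.65 and 7.79 and fell 1.5-fold (adjusted p 0.000114), with the call lost under quantile normalization and the spike-in scale. Ifitm2 read 4.95, 4.96 and 5.0 against 4.90, 4.89 and 5.04, with a change of 0.03 (95% interval −0.11 to 0.17, adjusted p 0.625). The Ifitm2 values overlap, and the change passed as higher with the spike-in scale (0.49), array median scaling (0.16) and quantile normalization (0.15). Bst2, which encodes tetherin, a protein that holds budding virions at the cell surface, read 7.49, 7.39 and 7.51 against 7.99, 8.24 and 8.21. It was 1.61-fold lower (log2 −0.68, SE 0.08, adjusted p 0.00025), a call lost under quantile normalization. Rtp4, a chaperone of receptor trafficking induced by interferon, read 5.56, 5.49 and 5.50 against 6.25, 6.22 and 6.45 and was 1.73-fold lower (adjusted p 8.57e-05). Rsad2, which encodes viperin, an enzyme that makes a chain-terminating nucleotide, was the 1 riser of this group. It read 0.63, 0.53 and 0.74 against 0.29, 0.27 and 0.30, a 1.27-fold rise (adjusted p 0.0021), and its 2 other probes gave log2 changes of 0.53 and 1.13.

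Both members of the ubiquitin-like system fell. Isg15 encodes a ubiquitin-like protein that is joined to other proteins and also secreted. It read 3.53, 3.51 and 3.61 on Magic-F1 arrays and 7.46, 7.46 and 7.64 on control arrays. The groups lie far apart, and Isg15 was 15.6-fold lower (log2 −3.97, SE 0.07, adjusted p 6.26e-08) and 15.2-fold with normexp. Its probe lies on chromosome 4 at 155573922 to 155573981 (mm9). Usp18, the protease that removes ISG15 and restrains type I receptor signalling, read 2.83, 2.78 and 2.84 against 4.70, 4.71 and 4.66. Its fall was 3.66-fold (log2 −1.87, SE 0.04, adjusted p 1.67e-07).

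The remaining type I targets included 3 that fell by over 1.5 on the log2 scale in the main values. Ifi35, a partner of NMI, read 3.17, 3.24 and 3.19 against 5.04, 5.14 and 5.03 and was 3.67-fold lower (adjusted p 3.11e-07). Xaf1, whose product favours cell death, read 1.40, 1.38 and 1.36 against 3.18, 3.14 and 3.21 and was 3.48-fold lower (adjusted p 1.92e-07). Ifi44 read −4.51, −4.72 and −4.55 against −3.16, −3.06 and −2.96 and was 2.90-fold lower (adjusted p 5.04e-06), or 1.55-fold with normexp. All 3 were separated between the groups. Parp14, a mono-ADP-ribosyltransferase, rose instead. It read 2.27, 2.18 and 2.18 against 0.25, 0.16 and 0.34, a 3.89-fold rise (log2 1.96, SE 0.06, adjusted p 6e-07), and its 2 other probes gave 1.5 and 1.96. Ifi27 read 6.33, 6.34 and 6.38 against 6.38, 6.38 and 6.61. Its change of −0.11 (95% interval −0.29 to 0.07) did not pass (adjusted p 0.212). The sign turned with array median scaling (0.02), and Ifi27 passed as higher with quantile normalization (0.20) and the spike-in scale (0.35). The array files give the symbol Ifi27 to probes whose RefSeq accession is now named Ifi27l2a, and those were not counted as Ifi27. The brighter of these probes rose by 0.50 on the log2 scale (adjusted p 0.0013), and the other changed by 0.29 (adjusted p 0.0535).

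The immunity-related GTPases and guanylate-binding proteins assemble on vacuoles that hold bacteria or parasites and are classic targets of interferon gamma. Of the 5 immunity-related GTPases 4 fell, and the 3 guanylate-binding genes all fell, in the main values, against 48.7% of all genes. Gbp3 and Gbp6 count among these 3 and were tested only through the control arrays. Iigp1 read −1.61, −1.90 and −1.83 on Magic-F1 arrays and 2.09, 2.09 and 2.25 on control arrays. It was 15.2-fold lower (log2 −3.92, SE 0.09, adjusted p 1.9e-07), and 9.64-fold with normexp. Tgtp1 read −0.25, −0.18 and −0.31 against 1.62, 1.64 and 1.57 and was 3.63-fold lower (log2 −1.86, SE 0.05, adjusted p 3.57e-07). Its near-identical copy Tgtp2 may share the signal. Igtp, also named Irgm3, a member of the regulatory class, read 3.52, 3.56 and 3.49 against 4.43, 4.44 and 4.41 and was 1.87-fold lower (log2 −0.90, SE 0.04, adjusted p 3.17e-06). Ifi47 read 0.56, 0.55 and 0.43 against 0.82, 0.80 and 0.92 and fell 1.26-fold (adjusted p 0.00227), but its change was 0.12 with the spike-in scale. Irgm1, another regulatory member, was the exception. It read 2.83, 2.90 and 2.87 against 2.64, 2.74 and 2.45, a 1.19-fold rise (adjusted p 0.0237). That call was lost without Magic-F1 replicate 2 (adjusted p 0.0706), Magic-F1 replicate 3 (0.0621) or control replicate 1 (0.0508). It was also lost under quantile normalization (0.0864) and with no filter on dim probes (0.0707). A second Irgm1 probe rose by 0.21 on the log2 scale (adjusted p 0.00346).

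Gbp2 read 0.34, 0.26 and 0.36 against 1.48, 1.48 and 1.43 and was 2.20-fold lower (log2 −1.14, SE 0.05, adjusted p 2e-06). Gbp3 and Gbp6 were not well above background on the 3 Magic-F1 arrays and passed the filter only through the control arrays, so they had to differ. Gbp3 read −6.70, −6.67 and −6.77 against −4.02, −4.15 and −4.19 and was at least 2.24-fold lower (adjusted p 2.03e-07). Gbp6 read −5.71, −5.72 and −5.42 against −2.94, −2.58 and −2.78 and was at least 5.73-fold lower (adjusted p 2.13e-06). Each bound sets the control mean against the lowest signal that counted as above background on Magic-F1 arrays, or the probe's own signal where higher. The bounds hold for the processed signal: with normexp the falls of Gbp3 and Gbp6 were 1.43-fold and 1.77-fold, smaller than the bounds. The offset of 50 added with normexp shrinks such folds. Gbp6 may share signal with its near-identical relative Gbp10.

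**Figure D3:**
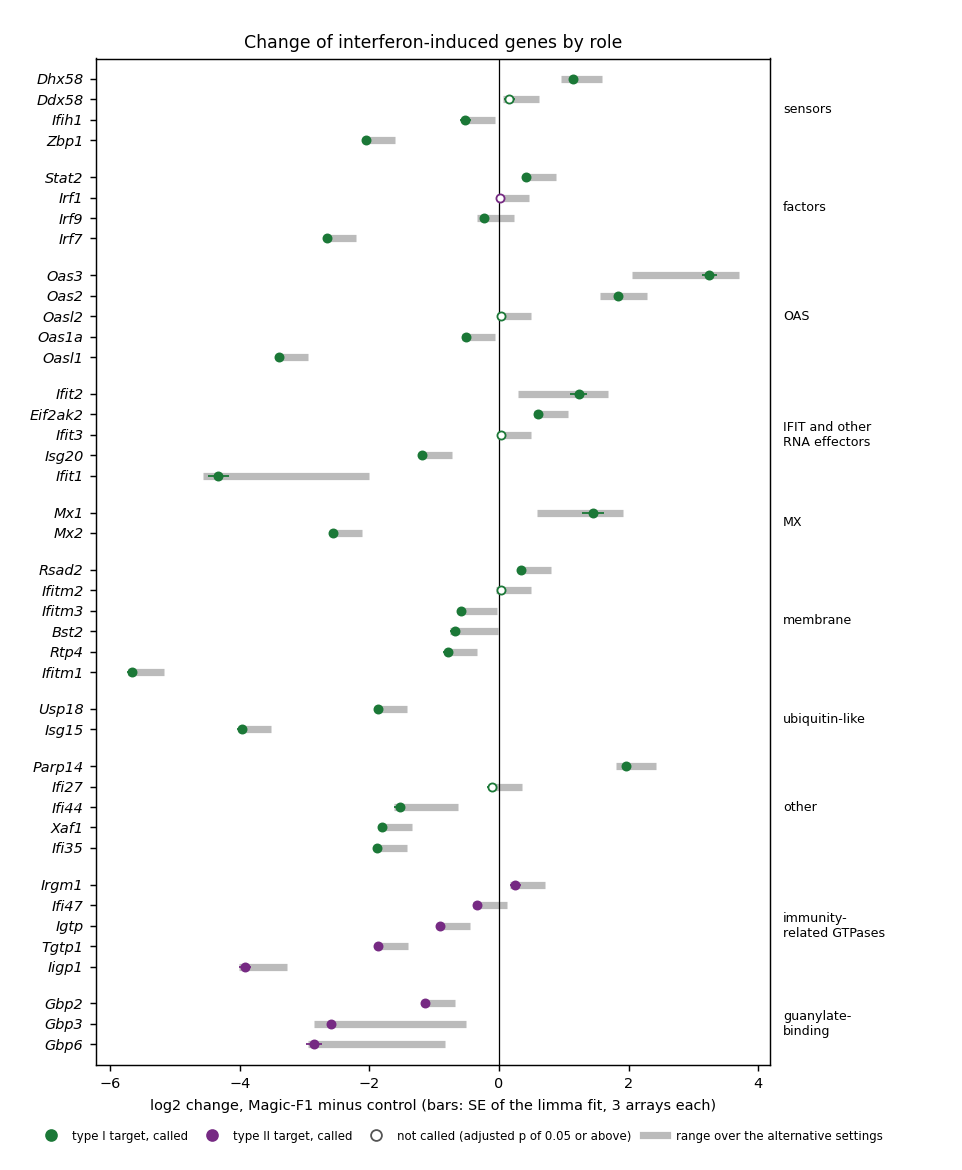
Log2 change of each member, Magic-F1 minus control (x axis), with the SE of the limma fit over 3 arrays per group as a thin bar and the range over the alternative settings as a grey band; filled points passed the test and colours separate type I from type II targets. Changes run from −5.66 for Ifitm1 to 3.25 for Oas3, and the bands of Irf9, Ifi47, Ifi27, Oasl2, Ifit3, Ifitm2 and Irf1 cross 0.

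Set against each other by type, 18 of the 32 type I targets fell (56.2%), 9 rose (28.1%) and 5 did not pass. Of the 9 type II targets 7 fell (77.8%), 1 rose (11.1%) and 1 did not pass. The 7 include Gbp3 and Gbp6, which passed the filter only through the control arrays, and of the other 7 type II targets 5 fell. The background over all genes was 48.7% lower and 40.5% higher. The median log2 change was −0.52 for type I and −1.14 for type II targets, against −0.17 for all tested genes. Probes well above background on all 6 arrays leave out Gbp3, Gbp6 and Ifit1. Over these probes the medians were −0.51 for type I, −0.90 for type II and −0.16 for all genes. In the main values all 6 members that rose at least 2-fold were among the 32 type I targets. Of all tested genes 23.6% rose at least 2-fold, so this count does not set type I targets apart. With normexp the rises of Oas2, Oas3 and Parp14 stayed above 2-fold. Those of Ifit2, Mx1 and Dhx58 were then 1.23-fold, 1.5-fold and 1.95-fold. The largest falls in the main values (Ifitm1, Ifit1 and Isg15) were type I targets too. Main values ranged from −5.66 to 3.25 for type I and from −3.92 to 0.25 for type II targets. The type I median was −0.15 with quantile normalization and −0.06 with the spike-in scale, and the type II median −1.19 and −0.68. The type was assigned with earlier results known and the difference between the types was not tested.

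Several members lie side by side on a chromosome as copies of an ancestral gene, and neighbours often moved apart. The 3 Ifit probes lie within 73.6 kb of chromosome 19 (34650244 to 34723855, mm9), and their log2 changes differed by 5.56, from 1.23 for Ifit2 to −4.33 for Ifit1. With normexp these 2 changes were 0.29 and −2.01, and 1 of the 3 Magic-F1 arrays did not measure Ifit1 well above background. The 3 Ifitm probes lie within 54.7 kb of chromosome 7 (148140912 to 148195650) and differed by 5.69. The Mx1 and Mx2 probes span 113 kb of chromosome 16 (97669616 to 97782386) and differed by 4.02, with opposite signs. On chromosome 5, the Oas1a, Oas2 and Oas3 probes (121180434 to 121348407) span 168 kb and differed by 3.76, and the Oasl1 and Oasl2 probes (115362168 to 115387615) span 25.4 kb and differed by 3.44. The GTPases on chromosome 11 (Tgtp1, Irgm1 and Ifi47, 48679419 to 48910232) span 231 kb and differed by 2.11. Gbp2 and Gbp3 on chromosome 3 (142236072 to 142300778) span 64.7 kb, and both fell, but Gbp3 passed the filter only through the control arrays and had to differ. The SE of a single change in these families was at most 0.17.

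**Figure D4:**
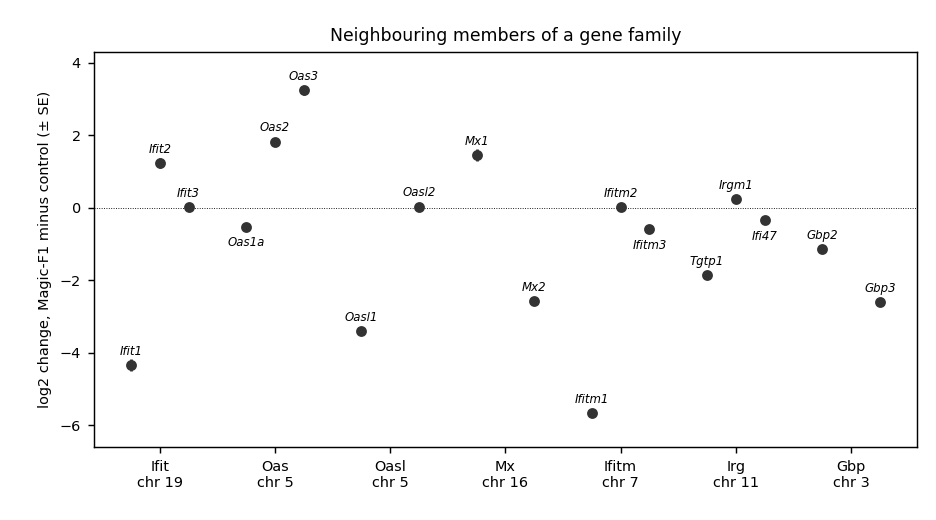
Log2 change, Magic-F1 minus control (y axis, bars are the SE of the limma fit and mostly smaller than the points), for members of a family whose probes lie side by side on 1 chromosome. The Ifit, Oas, Mx and Irg families hold both a member that rose and a member that fell, though the fall of Oas1a is lost and that of Ifi47 turns with the spike-in scale. The rise in the Irg family is that of Irgm1 alone, which passed in 14 of 19 alternative settings. Ifitm1 lies 5.69 below Ifitm2.

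Upstream of the members, receptors, kinases and regulators of the signal were mostly higher on Magic-F1: of 15 tested genes of 16 listed, 11 rose and 4 fell, with a median log2 change of 1.17. Over all genes 40.5% were higher and 48.7% lower, with a median of −0.17. The type I receptor chains Ifnar1 and Ifnar2 rose 2.32-fold and 2.26-fold (adjusted p 2.09e-06 and 2.89e-06). Ifnar1 read 3.56, 3.61 and 3.68 on Magic-F1 arrays and 2.41, 2.36 and 2.44 on control arrays. The type II chains Ifngr1 and Ifngr2 rose 3.46-fold and 4.56-fold. Il10rb, a chain shared by the receptors of interferon lambda and interleukin 10, rose 8.25-fold. Among the kinases Tyk2 rose 6.23-fold and Jak1 2.17-fold, while Jak2 fell 1.46-fold. Of the inhibitors, Socs1 fell 2.05-fold, Socs3 1.37-fold and the phosphatase gene Ptpn2 2.95-fold. Ptpn6 rose 8.66-fold, Pias1 4.62-fold and Ptpn11 1.22-fold. In the same libraries macrophage markers rose in 13 of 14 and satellite cell markers fell in 9 of 9, and their part in these changes was not tested. Mrc1 among the 13 and Pax7 among the 9 passed the filter only through the group where they were higher.

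Adaptors, kinases and factors of nucleic acid sensing rose in 13 of 14 tested genes of 15 listed, with a median of 1.60, against 40.5% of all genes. The interferon regulatory factors Irf8 and Irf5 rose 30.8-fold and 27.7-fold. The fall was that of Cgas, the sensor of cytosolic DNA (log2 −1.0, SE 0.06, adjusted p 1.2e-05). Irf8 read 5.77, 5.79 and 5.82 against 0.84, 0.83 and 0.87. Irf8 and Irf5 are abundant in macrophages, whose markers rose from a summed 395 to 423 to 1789 to 1867, and that link was not tested.

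Interferon ligands gave little signal. Of 18 listed, 12 had a probe, and 7 of these were well above background on no array. Ifna13 and Ifnab were tested: Ifna13 fell (log2 −0.58, adjusted p 0.00881) and Ifnab changed by 0.01 (adjusted p 0.948). Ifna genes are near-identical to each other, so a probe may not tell them apart. Ifnb1 was well above background on 1 control array and no Magic-F1 array, and so was 1 of 2 probes of Ifng. Ifnl3 was well above background on 2 Magic-F1 arrays and no control array. These ligands were not tested.

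A further 20 tested interferon-induced genes, of 28 listed, held 8 that rose, 9 that fell and 3 that did not pass, with a median of −0.05. These counts stand beside 40.5% higher and 48.7% lower over all genes. Oas1b, among the 9, was not well above background on the Magic-F1 arrays and was tested only through control. Phf11d fell 8.68-fold (adjusted p 1.02e-07), and Parp9, which works with the ligase DTX3L, fell 3.54-fold (adjusted p 4e-06). Ifi30, a lysosomal thiol reductase of antigen processing, rose 5.55-fold (adjusted p 8.3e-08). Cmpk2, a mitochondrial nucleotide kinase whose gene neighbours Rsad2, rose 3.65-fold (adjusted p 1.47e-07).

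**Figure D5:**
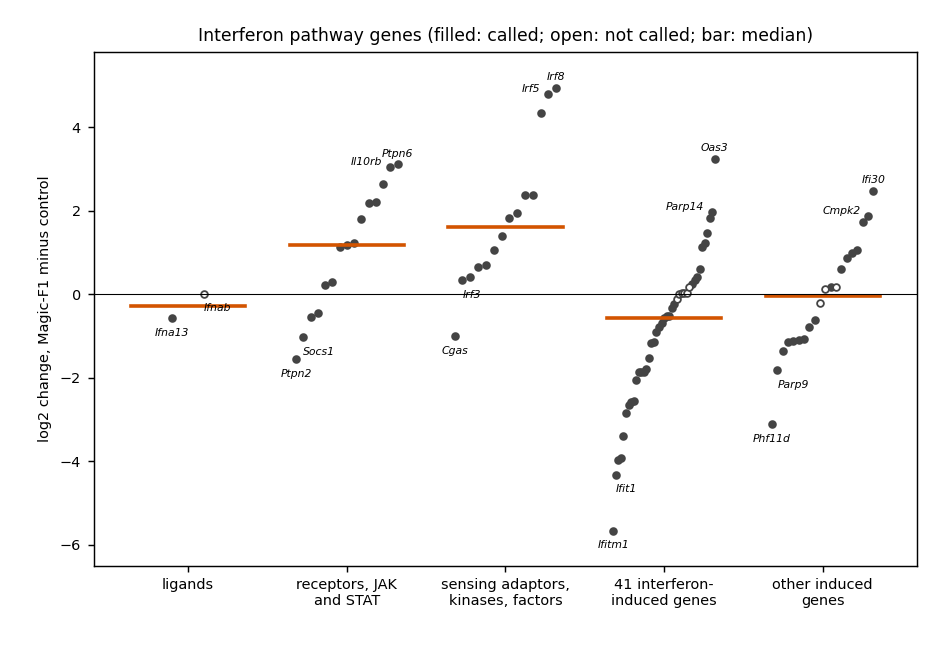
Log2 change, Magic-F1 minus control (y axis), of each tested gene of the interferon pathway in 5 groups, ordered within a group by change; filled points passed the test, open points did not, and the bar is the group's median. The receptor and sensing groups have medians of 1.17 and 1.60, and the 41 interferon-induced genes −0.58.

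Slide 1 held replicates 1 and 3 of each group, and slide 2 held replicate 2 of each. The median log2 change of the members was −0.60 on slide 1 alone (2 arrays per group) and −0.55 on slide 2 alone (1 array per group).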

How the data were processed

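RNA of 6 mouse satellite cell samples was hybridised to 6 single-colour Agilent arrays. The intensity of a spot is the processed signal of Agilent Feature Extraction 10.5.1.1, already background-subtracted but not normalized between arrays, per the file headers. A table of log2 values was deposited too. In 4 columns it equals log2 of the processed signal. In both columns numbered 1 it differs (SD of the difference 0.456 and 0.472), for reasons not given in the sources used here. Column medians were 3.53, 3.50 and 3.59 for Magic-F1 and 3.32, 3.35 and 3.40 for control. Scale and direction match the scanner values, and centring of the columns numbered 1 is unknown.

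Scanner files were used. Control spots and outlier spots were left out, the 75th percentile of an array was subtracted from its log2 signals, and repeat spots were averaged. Testing required a probe well above background on every array of either group. Groups were compared with limma 3.58.1 (lmFit, eBayes) in R 4.3.3, 2-sided, which was also tested on simulated data. Of 41174 probes, 25097 were named by RefSeq accession (GRCm38.p6, names only) and 6332 by the symbol in the files, whose mm9 positions are given. Where a gene had several tested probes, the one with the highest mean stands for it. Gbp6 is Mpa2l in the files and Ifi27 is D12Ertd647e. Every member is named, together with receptors, kinases and up to 4 of each other pathway list, and some pathway genes are not reported here. The members and lists were chosen with earlier results of these data known. Alternatives covered background (normexp with an offset of 50), scaling, filters, variance, slide, replicate block, probes and each replicate left out.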

Additional observations from a re-analysis of the deposited data

How the results depend on the processing

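Of the 35 calls, 28 held in every setting in which they were tested. The other 7 were Bst2, Ifitm3, Irgm1, Irf9, Oas1a, Ifih1 and Ifi47. The spike-in scale brought 6 new calls and array median scaling 4. With the spike-in scale 17 members rose and 20 fell, and 51.3% of all genes rose and 36.0% fell. The member median was −0.48 with normexp, −0.47 with quantile normalization, −0.45 with array median scaling, −0.13 with the spike-in scale, −0.52 for probes above background on all 6 arrays and −0.55 with array weights. In the same settings the type I median was −0.44, −0.15, −0.39 and −0.062 for the first 4 and −0.46 with array weights, −0.55 with the deposited table and −0.56 on slide 1 alone. The type II median was −0.83, −1.19, −1.01 and −0.68 for the first 4, −0.90 for probes above background on all 6 arrays and −1.07 with the symbols of the files, a setting chosen after seeing the data. Leaving out 1 replicate gave 9 to 11 rises, 25 falls each time, member medians of −0.61 to −0.53 and type I medians of −0.55 to −0.46. Oasl2 turned to −0.013 with quantile normalization. Ifi27 turned to 0.20 with quantile normalization, 0.021 with array median scaling, 0.35 with the spike-in scale and 0.50 with the symbols of the files. With the spike-in scale Irf9 turned to 0.23 and Ifi47 to 0.12. Irf1 turned to −0.0053 on slide 1 alone, −0.027 as a mean over probes and −0.0055 without control replicate 2. Ifitm2 turned to −0.051 as a mean over probes, and Ifit3 to −3.85e-04 without Magic-F1 replicate 2. With 1 replicate left out the change of Ifit3 lay between −3.85e-04 and 0.077 and that of Irf1 between −0.0055 and 0.029. The cause of these changes was not tested. Whether replicate numbers pair the samples is not stated in the labels. Deviations of same-numbered samples correlated at −0.003, 0.108 and 0.069, and those of differently numbered samples at −0.115 to 0.048. With 3 arrays per group these values cannot settle it. With a replicate block 10 members rose and 25 fell, and 35 of 35 calls held. Without a filter on dim probes more genes are tested, and 21 pathway genes fell in place of 15 and 31 rose in place of 32. The share of all genes that fell was then 34.9% in place of 48.7%. Low signal in at least 1 group limits the fold sizes of Ifit1, Gbp3, Gbp6, Iigp1, Ifi44, Oas3, Mx1 and Ifit2. Their folds shrank by over 1.5 times with normexp and its added offset of 50. How much of this came from the offset was not tested.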
